A study of Mus musculus with 39 samples.

Results

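Subcutaneous adipose tissue of C57BL/6J mice was measured on 39 Agilent 1-colour arrays, and the 10 arrays with the highest and the 10 arrays with the lowest signal of Ucp1 are described here against each other. The sides were chosen on measured values, so every difference between them is a description with no test. The other 19 arrays lie between the sides and were used for the tests. The mice were weaned at 3 to 4 weeks of age and were fed a low-fat control diet (LFC) with 10% of calories from fat, a high-fat diet with added sucrose (HFC) with 60% of calories from fat, or the HFC diet with 5, 20 or 75 µg of KAL-1, a botanical formulation (HF5, HF20 and HF75). No mouse carried a labelled genetic change. LFC and HFC were sampled from the first days of feeding (Day 1 for HFC, and Day 6, Day 10 and Day 14 for both), and all 5 diets every 3 weeks from Week 3 to Week 18. Week 0, also with LFC and HFC only, stands for the same feeding time as Day 14 by the study's methods, and the time points up to Week 0 are called early. Each array stands for 1 diet at 1 time point, and the labels do not say whether it holds RNA of 1 mouse or of several of the 5 mice killed per diet and interval.

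Ucp1 is the uncoupling protein of the inner mitochondrial membrane that lets brown and beige fat cells release the energy of respiration as heat. Brown fat cells hold many mitochondria and burn fatty acids, and beige cells with a like program arise in white depots, the subcutaneous depot above all. Noradrenaline from sympathetic nerves acts on beta-adrenergic receptors of these cells, which raises lipolysis and the transcription of Ucp1. Skeletal muscle shares much of the mitochondrial and fatty acid program with brown fat but not Ucp1, and muscle lies close to subcutaneous depots, so genes of the 2 tissues were kept in separate lists.

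The arrays were ranked by the brighter of 2 Ucp1 probes. Its sequence is shown because this 60-base probe alone decided which arrays are on each side, and it carries no capitals since all of it was measured.
Ucp1 probe: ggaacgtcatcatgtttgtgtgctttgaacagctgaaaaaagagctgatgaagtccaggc
The level of a gene is the log2 of its processed signal minus the log2 of the 75th percentile of the array, so 0 is the 75th percentile and 1 unit is a 2-fold step. Levels of different genes come from different probes and are not set against each other.

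On the high side the Ucp1 level was 6.51 on HF20 Week 12, 6.48 on HFC Day 6, 6.06 on LFC Day 6, 4.44 on LFC Day 10 and 3.37 on HFC Week 3. It was 3.08 on LFC Week 9, 2.82 on LFC Week 12, 2.59 on HFC Day 10, 2.05 on HFC Day 1 and 1.49 on HF5 Week 9. On the low side it was -2.67 on HF20 Week 15, -2.71 on HF5 Week 18, -2.73 on HF75 Week 6, -2.82 on HF20 Week 6 and -2.90 on HFC Week 15, and then -2.93 on HF5 Week 6, -3.36 on HF75 Week 3, -3.70 on HFC Week 9, -3.81 on HFC Week 6 and -3.91 on LFC Week 6. The high arrays were spread widely and the low arrays lay close together. The means were 3.89 ± 1.87 (SD, n = 10) and -3.15 ± 0.49 (SD, n = 10), a difference of at least 132-fold, since 1 high spot was saturated, that the choice of arrays fixes. The ranks ran on without a gap at either limit, since LFC Day 14 at 1.25 lay just outside the high side and HFC Day 14 at -2.59 just outside the low side. The probe was well above background on all 10 arrays of each side, and saturated on HFC Day 6. A ranking by the mean of both Ucp1 probes kept 10 of the 10 high and 9 of the 10 low arrays.

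**Figure D1:**
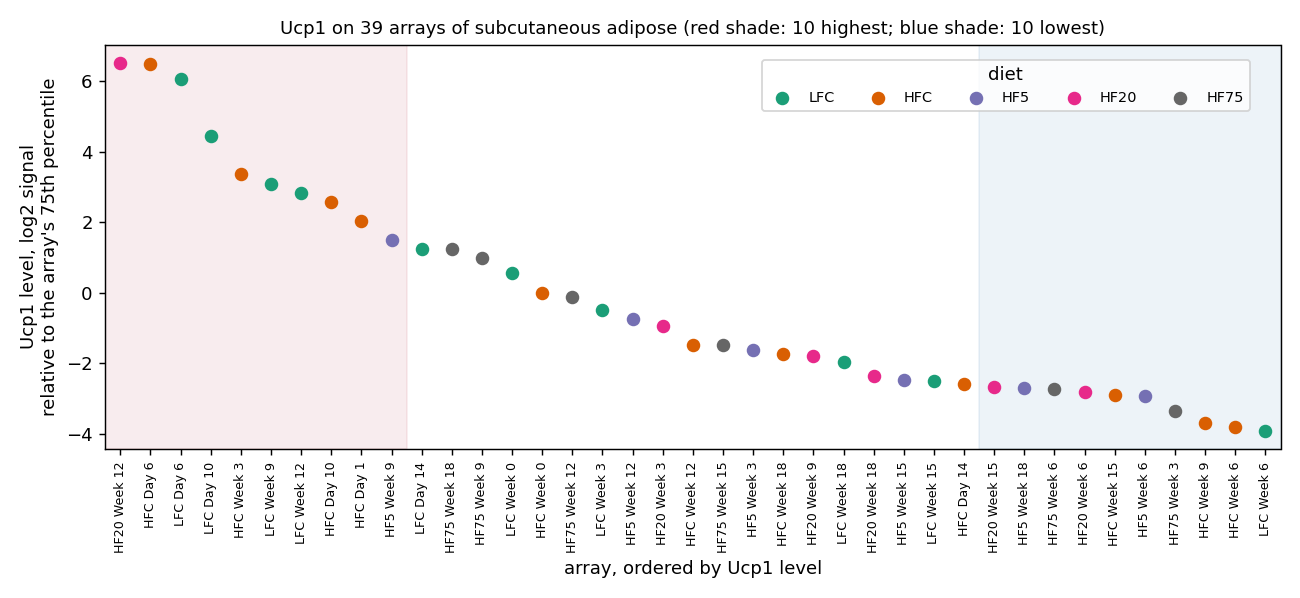
Ucp1 level (log2 signal relative to the 75th percentile of the array) on each of the 39 arrays, ordered from the highest to the lowest and coloured by diet. The 10 shaded arrays on the left reach from 6.51 down to 1.49 and the 10 on the right from -2.67 down to -3.91, with 19 arrays between them in a continuous slope.

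Both sides held arrays of several diets, and no early array was on the low side. Among the 10 high arrays 4 were LFC, 4 HFC, 1 HF5 and 1 HF20, and among the 10 low arrays 1 was LFC, 3 HFC, 2 HF5, 2 HF20 and 2 HF75. HF75 had no array on the high side. The high side took 5 early arrays, which were all the arrays of Day 1, Day 6 and Day 10, and the low side took 0. All 5 arrays of Week 6, 1 from each diet, were on the low side, with Ucp1 between -3.91 and -2.73. At Week 9 and at Week 3 the diets of a single time point were split between the sides.

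Within a diet the Ucp1 level ranged widely. The range was from -3.91 to 6.06 over the 10 LFC arrays, from -3.81 to 6.48 over the 11 HFC arrays, from -2.93 to 1.49 over the 6 HF5 arrays, from -2.82 to 6.51 over the 6 HF20 arrays and from -3.36 to 1.25 over the 6 HF75 arrays. From Week 3 to Week 18, where each diet has 6 arrays, the medians were -1.24 for LFC, -2.32 for HFC, -2.04 for HF5, -2.07 for HF20 and -0.80 for HF75. The SD over these 6 arrays was 2.88, 2.67, 1.67, 3.59 and 1.92 in the same order, so no pair of diets was separated beyond the spread of its arrays.

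The diet of HF20 Week 12 is uncertain. Its Ucp1 cannot be ranked against that of HFC Day 6, whose spot was saturated. In the deposited table of log2 ratios to LFC, the column named HF5 Week 12 correlated at 0.999 over 40628 probes with the scanner values labelled HF20 Week 12, and at 0.664 with those labelled HF5 Week 12. The 2 labels are therefore exchanged in one of the sources, and the array called HF20 Week 12 here may be HF5. The other, a middle array, would then be HF20. With the 2 labels exchanged the high side would hold 2 HF5 and 0 HF20 arrays, the Ucp1 range would reach 6.51 in HF5 and end at -0.75 in HF20, with SDs of 3.71 and 0.88, and both medians would stay at -2.04 and -2.07. Among the arrays of the sides, 49.3% to 87.8% of spots were well above background and the 75th percentile was between 204 and 1016 signal units, with overlapping ranges on both sides. HF20 Week 15 had 4936 spots flagged as outliers against 474 or fewer on every other array of the sides. The fat cell genes Adipoq, the hormone adiponectin, and Fabp4, a fatty acid carrier, were well above background on all 20 arrays.

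Of 19301 genes well above background on at least 10 of the 20 arrays, 3 were higher on every high array than on any low array (0.0155% of the genes) and 7 were lower (0.0363%). A mean difference of at least 2-fold was far more common, with 1631 genes higher (8.45%) and 1671 lower (8.66%). The median difference over all 29410 genes other than Ucp1 was 0.0031, with each array scaled to its own 75th percentile. In bulk tissue, fewer cells of a type and less RNA per cell cannot be told apart, and this holds for each difference below.

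The 3 genes that were higher without overlap were Cidea, Otop1 and Pts, of which Otop1 passed the filter only through the high side. Cidea, a lipid droplet protein that is abundant in brown fat, had the largest mean difference of the 3. Its level was 6.98 on HF20 Week 12, 6.06 on HFC Day 6, 6.27 on LFC Day 6, 6.40 on LFC Day 10, 4.87 on HFC Week 3, 5.74 on LFC Week 9, 6.05 on LFC Week 12, 6.37 on HFC Day 10, 3.70 on HFC Day 1 and 2.84 on HF5 Week 9. Over the low arrays Cidea ran from -3.17 on HF5 Week 6 to 1.64 on HF75 Week 3. The 2 high arrays with the lowest Cidea, HF5 Week 9 and HFC Day 1, were also the 2 with the lowest Ucp1 of the side. The measured means differed 90.2-fold, and since 3 of the high spots were saturated this is a lower bound.

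Otop1, a proton channel expressed in brown fat, stood at -2.18 ± 1.52 (SD, n = 10) on the high side and at -7.09 ± 0.72 (SD, n = 10) on the low side. Its highest level was 0.42 on HFC Day 6 and its lowest on the high side -4.62 on HF5 Week 9. It was well above background on all 10 high arrays and on 1 of the 10 low arrays, so the low level is close to the limit of the array, and with normexp background correction the difference shrank from 4.91 to 1.35. Pts, an enzyme of tetrahydrobiopterin synthesis, which is a cofactor of noradrenaline synthesis among others, differed by 1.51. It ran from 1.11 on HFC Day 1 to 3.09 on LFC Week 12 on the high side and from -0.09 to 1.05 on the low side, so its sides nearly touched.

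Of the other genes known from brown fat and little used by muscle, most lay higher on the high side with overlap. The list has 15 genes on the array, 12 passed the filter and its median difference was 1.65, or 0.61 with normexp background correction. Ppara, a nuclear receptor for fatty acids, was at 0.46 ± 1.55 against -2.88 ± 1.40 (SD, n = 9 and 10, 1 flagged spot left out). Letmd1, a mitochondrial protein needed for brown fat, was at 2.56 ± 0.91 against 0.92 ± 0.29, and P2rx5, a purine receptor, at -2.07 ± 2.72 against -4.74 ± 1.60. With scan day as a covariate, a fit that rests on the 2 scan days that hold both sides, Ppara differed by 0.44 and P2rx5 by -1.96. Dio2, the deiodinase that makes active thyroid hormone, was higher by 2.002, the glycerol kinase Gyk (now Gk) by 1.65 and the potassium channel Kcnk3 by 1.43. Lhx8, a transcription factor, was higher by 1.76 and Slc27a2, a fatty acid importer, by 1.504, and within the high side they ran from -8.63 to -0.92 and from -7.21 to 1.01. Elovl3, the fatty acid elongase, was higher by 4.05 but passed on too few arrays, with 7 high and 1 low array well above background. On 7 of the high arrays it was at -3.77 or higher, and on HFC Week 3, HFC Day 1 and HF5 Week 9 it was at or below -5.81, within the range of the low side.

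The regulators of brown fat identity lay level. Prdm16, a transcriptional coregulator of brown and beige fat cells, was at 0.53 ± 0.99 on the high side and 0.90 ± 0.87 on the low side, and Ebf2, a transcription factor of the same cells, at 0.67 ± 0.69 and 1.00 ± 0.80 (SD, n = 10 each). Zic1, a transcription factor of classical brown fat, was well above background on 2 high and 3 low arrays, and the growth factor gene Bmp8b on 0 high and 1 low array.

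Of the 8 beige genes 1 was at least 2-fold higher and 1 at least 2-fold lower, against 8.45% and 8.66% of all genes that passed the filter. Slc36a2, an amino acid transporter of the fat cell surface, ran from 0.03 on HFC Day 1 to 5.18 on HFC Day 6 on the high side and from -2.46 on HF5 Week 6 to 1.69 on HFC Week 6 on the low side. Its mean difference was 3.76. The other members differed by -1.104 for Tnfrsf9, a receptor of the tumour necrosis factor family, by -0.03 for the transcription factor Tbx1, 0.01 for the coactivator Cited1, 0.15 for Hoxc9, a homeobox factor of subcutaneous fat, 0.25 for the membrane protein Tmem26, 0.36 for Klhl13 and 0.70 for Epsti1. The median over the 8 genes was 0.20. With scan day as a covariate Tnfrsf9 turned to 0.80. The related uncoupling proteins went apart, since Ucp3, which is abundant in muscle, was higher by 4.27 (1.64 with normexp background correction and -1.02 with scan day as a covariate) and Ucp2, which many cell types express, differed by -0.51, with a sign that turned to 1.13 with scan day as a covariate and to 0.28 without the Week 6 arrays. Ucp3 was at -0.07 on HF75 Week 3, above 6 of the high arrays.

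**Figure D2:**
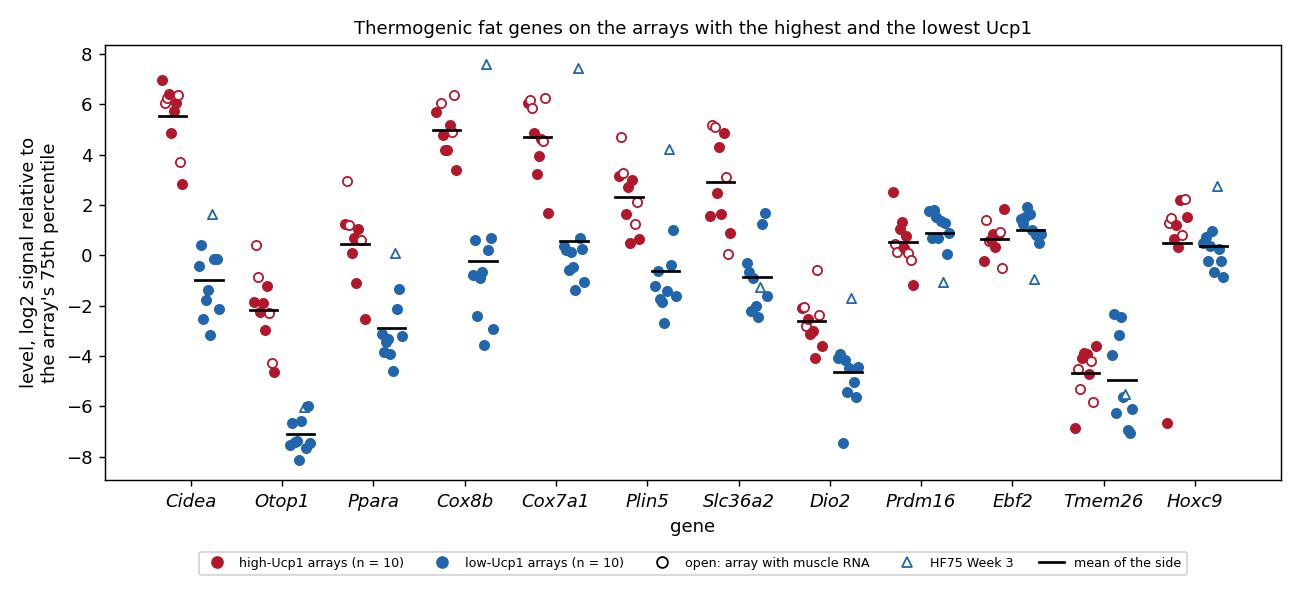
Levels of 12 thermogenic genes (log2 signal relative to the 75th percentile of the array) on the 10 high-Ucp1 (red) and 10 low-Ucp1 (blue) arrays, with the mean of each side as a bar, arrays with muscle RNA as open symbols and HF75 Week 3 as a triangle. Cidea and Otop1 do not overlap, Cox8b and Cox7a1 overlap only through HF75 Week 3, and Prdm16, Ebf2, Tmem26 and Hoxc9 lie level.

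Genes that brown fat shares with muscle had a median difference of 2.39 over 11 genes, and 3 of them overlapped through 1 array alone. Cox8b and Cox7a1, subunits of cytochrome c oxidase found in brown fat, heart and muscle, differed by 5.18 and 4.16. Cox8b ran from 3.39 on HF5 Week 9 to 6.36 on HFC Day 1 over 9 high arrays, with the spot of HFC Day 6 flagged and left out. On the low side 9 arrays were between -3.55 and 0.70, and HF75 Week 3 was at 7.59, the highest of both sides. The same array was the only low array inside the high range for Cox7a1, at 7.43, and for Fabp3, the fatty acid carrier of muscle and heart, at 7.41. Ckmt2, a mitochondrial creatine kinase, was higher by 5.01, Plin5, a lipid droplet protein of oxidative cells, by 2.93, Cpt1b, the mitochondrial importer of fatty acids in muscle and brown fat, by 2.39 and Ppargc1a, a coactivator of mitochondrial genes, by 2.29. Ppargc1b was higher by 1.34, the nuclear receptor Esrra by 1.27 and the kinase Pdk4 by 0.90, while Esrrg differed by -0.15. With scan day as a covariate Cox8b differed by 0.58 and the direction of Cox7a1, Fabp3, Ckmt2, Plin5, Cpt1b, Ppargc1a, Ppargc1b and Esrra turned. That fit rests on 2 scan days. Within Week 9 the shared list had a median of 0.97, and within Week 3, with HF75 Week 3 on the low side, of -3.38.

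Muscle RNA differed widely between the arrays. The mean level of 35 skeletal muscle genes had a median of -2.24 over the 39 arrays, and arrays more than 2 units above it are called muscle arrays. There were 7 of them. On the high side these were HFC Day 1 at 4.99, HFC Day 6 at 2.81, LFC Day 6 at 1.81 and HFC Day 10 at 0.58, and on the low side HF75 Week 3 at 6.44, with the most muscle RNA of all 39 arrays. HF5 Week 12 and HF20 Week 18 were the others and lay in the middle. The high side otherwise ran from -4.44 to -0.79 and the low side from -4.57 to -1.98.

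Individual muscle genes followed the same arrays. Myh4, a fast myosin heavy chain, was between 5.84 and 6.27 on the 4 muscle arrays of the high side, from -2.46 to 4.97 on its other arrays, at 7.42 on HF75 Week 3 and from -7.67 to 0.44 on the remaining low arrays. Tnnt3, the fast troponin T, differed by 5.09 between the sides, and Pvalb, a calcium buffer of fast fibres, by 4.85. Of the 32 muscle genes that passed the filter 27 were at least 2-fold higher on the high side and 0 lower. Over all genes that passed, 8.45% were at least 2-fold higher and 8.66% lower. None of the muscle genes was free of overlap. With scan day as a covariate the muscle list turned to a median of -2.69, with Myh4 at 1.17 and Tnnt3 at 0.05. Over Week 3 to Week 18 alone, with HF75 Week 3 still on the low side, its median was 0.29. The shared list was at 1.46 and the brown list at 1.37 there. Without the Week 6 arrays the muscle median was 0.94, and without HF75 Week 3 alone it was 3.65. The slow troponin T Tnnt1 had the smallest difference, -0.29.

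**Figure D3:**
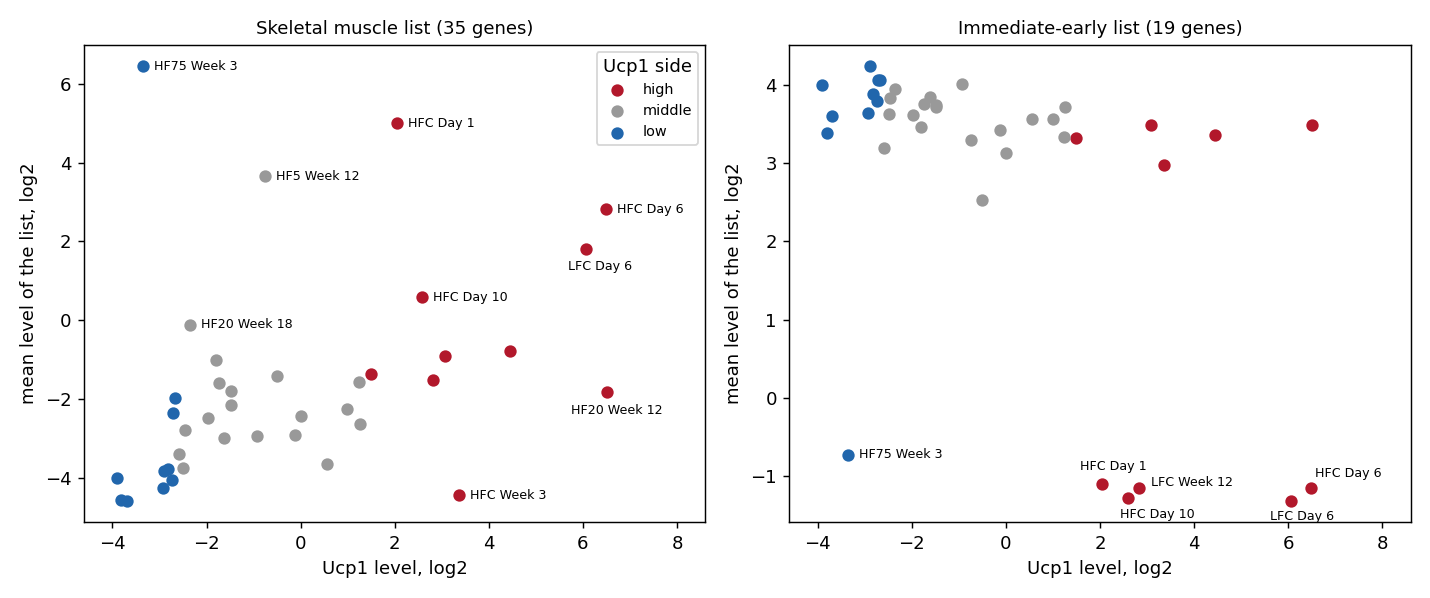
Mean level (log2) of 35 skeletal muscle genes (left) and of 19 immediate-early genes (right) against the Ucp1 level of each of the 39 arrays, coloured by side. HF75 Week 3 has the highest muscle mean, 6.44, with a Ucp1 of -3.36, and 6 arrays have an immediate-early mean below 0 while the others lie between 2.52 and 4.23.

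Cidea was about as far apart without the muscle arrays. Over the 6 high and 9 low arrays that remain, Cidea differed by 6.74, against 6.50 over all, and the median of the brown list was 1.34 and that of the shared list 2.14. HFC Week 3, the high array with the least muscle RNA, had Cidea at 4.87, Otop1 at -1.89, Slc36a2 at 4.33 and Cox8b at 4.21. The muscle list itself still differed, with a median of 1.67 and with Myl1, a myosin light chain, and Tnnc1, the slow troponin C, free of overlap. The part of muscle in the shared genes was not tested, and the direction of the shared list turned with scan day as a covariate, to a median of -0.98.

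These smaller sides make absence of overlap easier to reach. Without the muscle arrays 228 of 18026 genes were higher without overlap (1.26%) and 71 lower (0.394%). Without HF75 Week 3 alone 182 of 19252 were higher (0.945%) and 53 lower (0.275%), so leaving out this 1 array raised the counts of 3 and 7 many times. In both sets the brown and shared genes Cidea, Cox7a1, Cox8b and Fabp3 were among them, and so were Cpt2, Etfb and Hadh of fatty acid oxidation and Atp5a1, Atp5c1, Cox7b, Sdhd and Uqcrfs1 of the respiratory chain. Otop1 stayed free of overlap without HF75 Week 3 and no longer passed the filter without the muscle arrays. Other genes of both sets, named after their values were seen, were Mdh1 of the citrate cycle, Ppif of the mitochondrial matrix, Pdha1 of pyruvate dehydrogenase and Sucla2 of succinyl-CoA synthetase, all higher. The myosin light chains Myl1 and Myl3 and the urinary protein genes Mup1, Mup2 and Mup4 were in both sets too, with larger differences. Without the muscle arrays these were 2.60, 2.76, 6.90, 7.07 and 5.98.

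Most genes of fatty acid oxidation and the respiratory chain were higher on the high side, but both lists turned sign with scan day as a covariate, to medians of -0.26 and -0.67. Of 19 oxidation genes 18 were at least 2-fold higher, against 8.45% of all genes that passed the filter, and the median difference was 1.76. Ehhadh, a peroxisomal enzyme, differed most, at 0.19 ± 1.64 against -2.66 ± 1.23, and Cpt2, the inner carnitine transferase, was at 4.94 ± 0.85 against 2.58 ± 1.096 (SD, n = 10 each). The exception was Cpt1a, the form of the carnitine transferase used in liver and white fat, at 1.11 ± 0.71 against 1.91 ± 1.09. The 27 genes of oxidative phosphorylation had a median difference of 1.24 and ranged from 0.38 for Cox4i1 and Atp5b to 2.05 for Uqcrfs1. On HF75 Week 3 the mean of these genes was 6.81, above all other arrays of the low side, which ended at 4.26.

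Genes of lipid synthesis were also higher on the high side. The median difference of 15 lipogenic genes was 2.80, with Mlxipl, the carbohydrate-sensing transcription factor, higher by 3.88, Acaca, which makes malonyl-CoA, by 3.50, and Pnpla3 by 3.32. Fasn, the fatty acid synthase, was higher by 1.84 and Srebf1 by 0.94, the smallest of the list. Scd1, the stearoyl-CoA desaturase, was between 5.43 and 6.98 on 9 high arrays and at 1.66 on HFC Day 1, and among the low arrays it reached 6.48 on HFC Week 6 and 6.11 on HFC Week 9. These 2 low arrays were thus at the level of the high side for Scd1 with a Ucp1 of -3.81 and -3.70.

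Receptors and enzymes of lipolysis were also apart. Over 13 genes the median difference was 1.53. It was 0.87 with scan day as a covariate and 0.91 without the arrays with an immediate-early mean below 0. Adrb3, the beta-receptor of fat cells, was at 4.11 ± 2.22 against 1.24 ± 2.37, and Plin1, the coat of the lipid droplet, at 4.84 ± 1.59 against 2.17 ± 1.82 (SD, n = 10 each), and both overlapped over several units. Prkar2b, a regulatory subunit of protein kinase A, was higher by 2.59 and Pnpla2, the first lipase of triglycerides, by 1.25. Adra2a, the inhibitory alpha-receptor, was lower, at -2.41 ± 0.96 against -0.31 ± 1.38. The lipase Mgll was nearly level, with 0.16.

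General fat cell genes were higher on the high side. Over 16 genes the median difference was 1.73, from 0.11 for Fabp4 to 3.63 for Acvr1c, a receptor of the activin family, and 3.51 for Agpat2, an enzyme of triglyceride synthesis. With scan day as a covariate the median was 0.69. Adipoq was at 5.48 ± 1.39 and 3.84 ± 1.74, and Lep, the hormone leptin, at 0.57 ± 1.90 and -1.53 ± 2.30 (SD, n = 10 each). The mean of the list was between 3.80 and 5.12 on 9 high arrays and at 1.88 on HFC Day 1, and reached 4.70 and 4.34 on HFC Week 6 and HFC Week 9 of the low side. The part of these fat cell markers in the other differences was not tested.

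Genes of heat production without Ucp1 were mixed. The 6 genes had a median difference of -0.52. Atp2a2, a calcium pump of the endoplasmic reticulum, differed by -1.11 and Slc6a8, the creatine transporter, differed by -0.95, while Ckb, the brain-type creatine kinase, was at -0.28 and Gatm, of creatine synthesis, at 0.55. Pm20d1, an enzyme that makes N-acyl amino acids, was higher by 2.65 and well above background on 7 high and 3 low arrays.

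**Figure D4:**
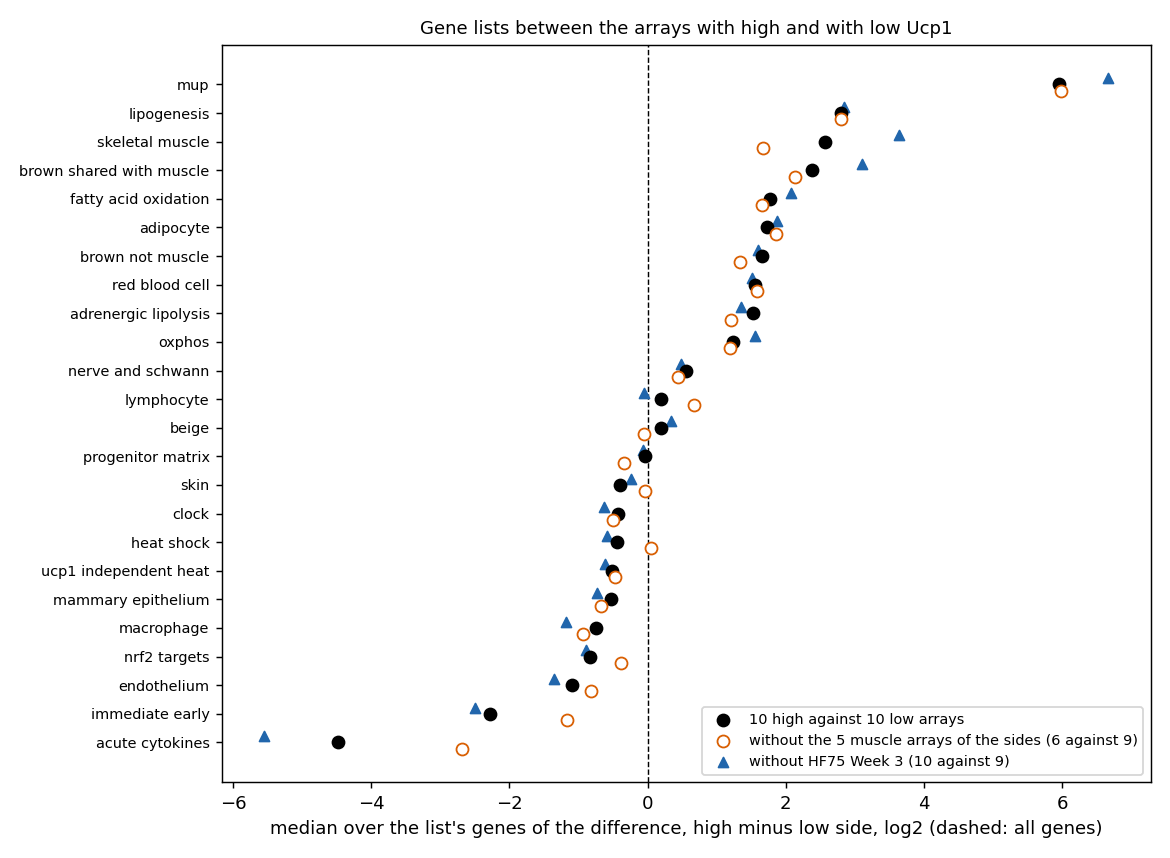
Median difference of each gene list between the high and the low side (log2, high minus low), for all 20 arrays (black), without the muscle arrays (open) and without HF75 Week 3 (triangles), with the median of all genes as a dashed line. The brown list lies at 1.65, 1.34 and 1.60, the muscle list at 2.56, 1.67 and 3.65, and the immediate-early list at -2.29, -1.17 and -2.49.

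The 7 genes that were lower on every high array included 2 enzymes of the antioxidant response, but with normexp background correction 0 genes were lower without overlap. Nqo1, a quinone reductase, was at -0.83 on LFC Day 10, -1.05 on HF20 Week 12, -1.32 on HFC Week 3, -1.37 on LFC Week 9, -1.72 on HF5 Week 9, -1.80 on LFC Week 12, -2.02 on HFC Day 6, -2.38 on LFC Day 6, -2.62 on HFC Day 10 and -4.75 on HFC Day 1. Its low side ran from -0.63 on HFC Week 9 to 0.61 on HF5 Week 6 and HF75 Week 3. The sides were thus apart from -0.83 to -0.63, and the 4 muscle arrays had the 4 lowest levels. Txnrd1, the cytosolic thioredoxin reductase, was at 2.92 ± 0.45 against 4.13 ± 0.32 (SD, n = 10 each), and its sides were apart from 3.50 to 3.73. Without the muscle arrays the differences were -1.34 for Nqo1 and -0.998 for Txnrd1, against -2.04 and -1.21.

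Other genes of the same response went several ways. The list, which was put together after Nqo1 and Txnrd1 were seen, has 9 members and a median of -0.83. The median was -0.25 over Week 3 to Week 18, -0.33 without the Week 6 arrays and -0.38 without the muscle arrays. With scan day as a covariate it turned to 0.38. The heme oxygenase Hmox1 was at 1.78 ± 1.11 against 3.25 ± 1.81, Gclc, of glutathione synthesis, differed by -0.83, and Gclm and Srxn1 by -0.08 and 0.05. G6pdx, of the pentose phosphate path, was higher by 1.09. Slc7a11, the cystine importer, was well above background on 0 high and 6 low arrays, and was at least 1.37-fold lower on the high side.

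The remaining 5 genes were Pctk3 (now Cdk18), a kinase, Scn2b, a sodium channel subunit, the gene 4933426M11Rik, whose role is not given here, Pgap3, which remodels glycolipid anchors, and Stag1, a cohesin subunit. Pctk3 ran from -2.72 on HFC Day 10 to -0.78 on LFC Day 10 on the high side and from -0.34 on HFC Week 15 to 1.72 on HFC Week 6 on the low side. Scn2b was at -4.71 ± 0.70 against -2.64 ± 0.52 and was well above background on 8 of the 10 high arrays. With normexp background correction its difference shrank from -2.07 to -0.87. Pgap3 and Stag1 differed by -0.69 and -0.67 and 4933426M11Rik by -0.91, with an SD of at most 0.33 on each side.

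Several of the largest mean differences in the lower direction were in cytokines and were split within the sides. Ifnb1, interferon beta, differed by -6.33, Csf3, a granulocyte growth factor, by -5.78, Cxcl2, a neutrophil chemokine, by -5.61 and Il6 by -5.11, and with scan day as a covariate by -0.22, 0.69, 2.25 and 2.98. Il6 was at -6.78 on HFC Day 6, -7.14 on LFC Day 6, -6.69 on LFC Week 12, -6.86 on HFC Day 10 and -6.05 on HFC Day 1. On the other 5 high arrays it was 4.93 on LFC Day 10, 4.87 on LFC Week 9, 3.91 on HF20 Week 12, 3.43 on HF5 Week 9 and 2.03 on HFC Week 3, and on the low side it was at -6.11 on HF75 Week 3 and from 2.75 to 6.50 elsewhere. Each side therefore held arrays with and without Il6 signal, and it was well above background on 5 high and 9 low arrays. The list of 11 genes, made up of 10 such cytokines and the prostaglandin synthase Ptgs2, was chosen after the values were seen and had a median of -4.48, or -2.17 over Week 3 to Week 18.

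Immediate-early genes, which cells switch on within minutes of a stimulus, marked the same arrays. The median difference over 19 genes was -2.29. All 18 that passed the filter were at least 2-fold lower on the high side, against 8.66% of all genes that passed it. Fos differed by -4.02 and Egr2 by -1.31. With scan day as a covariate the list turned to a median of 1.73. The mean of the list was from -1.307 to -1.101 on HFC Day 6, LFC Day 6, LFC Week 12, HFC Day 10 and HFC Day 1, and -0.72 on HF75 Week 3. On all 33 other arrays it was between 2.52 and 4.23, with none in between. On these 6 arrays the mean of the cytokine list lay between -5.61 and -5.11, and on the 33 others it was -0.90 or higher. Of the 6 arrays 5 were muscle arrays. How the tissue of single arrays was handled is not given in the sources used here, and the part of this split in the differences was not tested.

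Without the 6 arrays, 5 high and 9 low arrays remained. The median difference of the immediate-early genes was then -0.61 and that of the cytokines -1.91. That of the brown list was 1.30, of the shared list 1.82, of lipogenesis 2.25 and of oxidative phosphorylation 1.04, while fat cell genes were at 1.79, red blood cell genes at 1.83 and macrophage genes at -0.87. Cidea differed by 6.62, Otop1 by 4.49, Pts by 1.23, Nqo1 by -1.25 and Txnrd1 by -0.85.

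**Figure D5:**
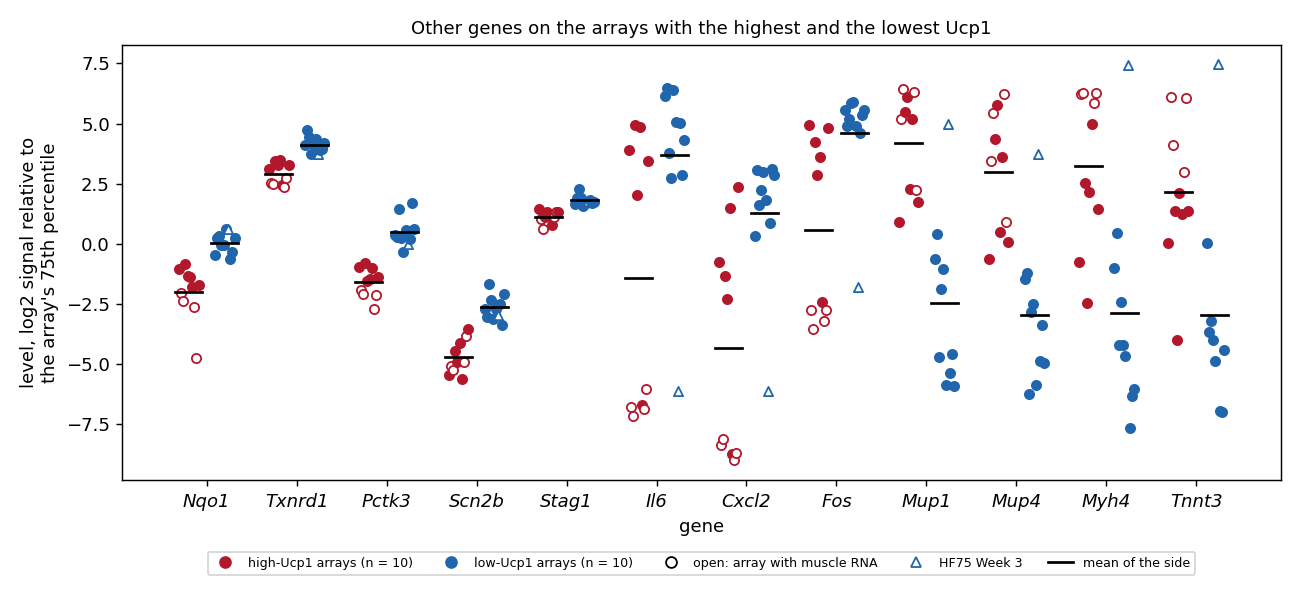
Levels of 12 further genes (log2 signal relative to the 75th percentile of the array) on the 10 high-Ucp1 (red) and 10 low-Ucp1 (blue) arrays, with the mean of each side as a bar, arrays with muscle RNA as open symbols and HF75 Week 3 as a triangle. Nqo1, Txnrd1, Pctk3, Scn2b and Stag1 are lower on every high array, Il6, Cxcl2 and Fos split into separate levels within a side, and Mup1, Mup4, Myh4 and Tnnt3 are high on HF75 Week 3.

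Major urinary proteins, which liver, glands and some fat depots secrete and which bind pheromones and lipids, were also among the largest differences. Mup2 differed by 6.69 and Mup1 by 6.65. Mup1 was at 6.45 on LFC Day 6, 6.33 on HFC Day 10, 6.09 on HFC Week 3, 5.48 on LFC Day 10, 5.19 on LFC Week 12 and HFC Day 6, 2.27 on LFC Week 9, 2.25 on HFC Day 1, 1.75 on HF5 Week 9 and 0.93 on HF20 Week 12. On the low side it was at 5.00 on HF75 Week 3, 0.42 on HF5 Week 18 and below 0 on the other 8 arrays, and 5 of these lay below -4.58 or at it. HF20 Week 12 thus had the lowest Mup1 of the high side, and Mup1 overlapped only through HF75 Week 3. The 7 genes of the family were chosen after their values were seen and had a median of 5.96. They are not independent, because the probes of Mup1 and Mup2 share 57 of 60 bases in a run and those of Mup-ps6 and Mup-ps8 are identical.

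Akr1b7, an aldo-keto reductase, had a mean difference of -4.92, or -2.43 without the Week 6 arrays. On the low side it was at 5.05 on LFC Week 6, 3.99 on HFC Week 6, 3.69 on HFC Week 9, 3.52 on HF5 Week 6 and 2.04 on HF75 Week 6. On HF20 Week 15 it was at -1.30, on HF20 Week 6, the remaining array of that week, at -6.32, and the high side was between -7.54 and -2.87. Fam71a, a gene with little known function, differed by -5.33 and was lowest on the same 6 arrays as Il6, followed by HFC Week 3 at -5.16.

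Markers of other cell types went both ways. The 16 macrophage genes had a median of -0.75. It was -1.18 without HF75 Week 3, -0.24 without the Week 6 arrays and 1.56 with scan day as a covariate. Of the 16 genes 7 were at least 2-fold lower, against 8.66% of all genes that passed the filter. The largest difference was at Tnf, at -2.13 ± 2.67 against 2.21 ± 2.51, while Emr1 (now Adgre1), the F4/80 antigen, differed by 0.40. The 9 endothelial genes had a median of -1.09, from -2.14 for Vwf, the von Willebrand factor, to -0.19 for Kdr, the receptor of vascular growth factor. That median was -0.43 without the Week 6 arrays and -0.41 with scan day as a covariate. Red blood cell genes had a median of 1.55 over 5 genes, and Alas2, of heme synthesis, was at 2.47 ± 1.49 against 0.54 ± 1.64. Of 9 nerve and Schwann cell genes S100b was higher by 2.19 and the median was 0.56, and Th, the enzyme that limits noradrenaline synthesis, was well above background on 1 array of each side. The neuropeptide Npy was above background on 2 high and 7 low arrays.

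Progenitor and matrix genes were level, with a median of -0.04 over 15 genes and values from -0.92 for Pdgfra to 1.00 for Col1a1. Lymphocyte genes had a median of 0.20 over 14, mammary and other simple epithelium -0.54 over 14 with the keratin Krt8 at -3.95, and skin -0.40 over 8. With scan day as a covariate the lymphocyte median was 2.46, and it was 3.82 within Week 9 and 0.49 within Week 3. Clock genes had a median of -0.42 over 15, and Bhlhb2 (now Bhlhe40) differed most, by -1.88. Heat shock genes, a list added after values were seen, had a median of -0.45, with Hspa1a at -2.56 and Hsp90aa1 level. Their median was 0.04 without the muscle arrays and 0.19 over Week 3 to Week 18. Without the arrays with an immediate-early mean below 0 it was 0.53. Y-linked genes were detected on all 39 arrays and their list, with Xist, had a median of 0.17.

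The 19 middle arrays, which belong to neither side because of their Ucp1 ranks, were used to test whether other genes follow Ucp1 within that narrower range. For each of 19245 genes limma fitted the slope of its level on the Ucp1 level, which ran from -2.59 to 1.25 there. No gene passed an adjusted p of 0.05, with 0 rising (0% of the genes) and 0 falling (0%) in the limma fit. With scan day or time point as a random block 1 gene fell, LOC100047336, with limma adjusted p of 0.0366 and 0.0436. At an unadjusted p under 0.05 there were 457 genes with a slope above 0 (2.37%) and 933 with a slope below 0 (4.85%). In simulated data of the same 19 arrays and 19018 genes, this fit recovered 58.5% of genes with a slope of 0.5, 91.5% of those with a slope of 1 and 0% of those with a slope of 0.25, so small slopes could not be detected.

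Genes with the smallest p were not those that separated the sides. The limma slopes were -0.91 ± 0.15 (SE) for LOC100047336, with an adjusted p of 0.090, -0.41 ± 0.07 for Furin, a protease of the secretory path, with an adjusted p of 0.130, and -0.95 ± 0.19 for Slc6a12, a betaine carrier, with an adjusted p of 0.339. Between the sides these genes differed by -0.08, -0.38 and -0.58. Of the genes free of overlap between the sides, Cidea had a slope of 0.74 ± 0.22 (SE), with a limma p of 0.0032 and an adjusted p of 0.557. Txnrd1 had -0.31 ± 0.10, Nqo1 -0.27 ± 0.12 and Pctk3 -0.31 ± 0.13, with adjusted p of 0.591, 0.638 and 0.631 in limma. Pts had 0.14 ± 0.08, Scn2b -0.04 ± 0.14, Pgap3 -0.14 ± 0.08 and Stag1 -0.01 ± 0.06. Otop1 was well above background on too few middle arrays to be fitted.

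Among thermogenic genes the slope was 0.62 ± 0.19 (SE) for Cox8b, 0.43 ± 0.20 for Cox7a1, 0.39 ± 0.17 for Plin5, 0.38 ± 0.17 for Ppara and 0.38 ± 0.14 for Slc36a2, with limma adjusted p of 0.566 to 0.668. It was 0.03 ± 0.15 for Prdm16, -0.24 ± 0.12 for Ebf2 and -0.20 ± 0.15 for Dio2. Of the brown list 7 of 11 slopes were above 0 and of the shared list 9 of 11, against 9554 of 19245 genes (49.6%). The lists with nearly all slopes above 0 were lipogenesis, with 14 of 14 and a median slope of 0.26, oxidative phosphorylation, with 26 of 27 and 0.13, fatty acid oxidation, with 18 of 19 and 0.19, and fat cell genes, with 15 of 16 and 0.19. The same held for 6 of 7 Mup genes, 5 of 5 nerve genes and 4 of 4 red blood cell genes.

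Lipolysis genes had 11 of 13 slopes above 0 and a median of 0.15. Macrophage genes had 1 of 16 slopes above 0 and a median of -0.32, matrix genes 1 of 15 and -0.21, and the cytokines 0 of 11 and -0.44. The muscle genes had 17 of 32 above 0 and a median of 0.06, and with the muscle mean as a covariate the median slope of the shared list was 0.11, as without it. The immediate-early genes had 2 of 18 above 0 with a median of only -0.05, and no middle array had an immediate-early mean below 0. None of these lists had a gene past the adjusted threshold, and the genes of a list share arrays and are not independent of each other.

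Only 2 scan days held arrays of both sides, and the differences within a day matched those of the whole sides for some genes and not for others. At Week 9, HF5 and LFC were on the high side and HFC on the low side, and Cidea was higher by 4.46, Otop1 by 3.85, Cox8b by 3.56, Mup1 by 7.39 and Lhx8 by 5.79, with Akr1b7 at -7.99 and Slc36a2 at 0.01. The brown list had a median of 0.89 there, the shared list 0.97 and the muscle list 2.92. Other lists were nearly level or turned at Week 9, with medians of 0.25 for fatty acid oxidation, 0.23 for oxidative phosphorylation, 0.19 for lipogenesis, -0.33 for lipolysis, -0.60 for fat cell genes, 0.74 for macrophages and 0.95 for cytokines. At Week 3, HFC was on the high side and HF75 on the low side, and Cidea was higher by 3.23, Otop1 by 4.13, Slc36a2 by 5.59 and Ucp2 by 2.50, while Mup1 differed by 1.09, Akr1b7 by -1.52, Elovl3 by -1.40 and Dio2 by -1.43. The list medians there were 1.77 for the brown list, 2.63 for lipogenesis, 2.47 for lipolysis, 2.77 for fat cell genes, 2.60 for macrophages, -0.69 for fatty acid oxidation and -1.99 for oxidative phosphorylation. The shared list had a median of -3.38 and the muscle list of -10.8, and Cox8b differed by -3.38. HF75 Week 3 is the array with the most muscle RNA. Nqo1 differed by -0.92 at Week 9 and -1.93 at Week 3, and Pctk3 by -1.63 and -1.56. These comparisons rest on 3 and 2 arrays and carry no test. With scan day as a covariate, which draws on the same 2 days, Cidea differed by 3.93, Otop1 by 3.97, Pts by 0.50, Pctk3 by -1.60, Nqo1 by -1.35 and Txnrd1 by -0.49. The medians in that fit were 0.91 for the brown list and 1.34 for lipogenesis. The shared, muscle, oxidative phosphorylation, fatty acid oxidation, immediate-early and cytokine lists turned sign there, at -0.98, -2.69, -0.67, -0.26, 1.73 and 2.98. So did the macrophage list at 1.56, the antioxidant list at 0.38, heat production without Ucp1 at 0.80 and heat shock at 1.17, and the matrix and Y-linked lists, which were near 0 in the main comparison, at 1.30 and -0.01.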

How the data were processed

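RNA of mouse subcutaneous adipose tissue was hybridised to 39 Agilent 1-colour arrays, 1 for each diet and time point. The deposited scanner files hold intensity values per spot, and gProcessedSignal, which the authors obtained with Agilent Feature Extraction (9.1 in the submitters' processing notes, 10.5.1.1 in the file headers), was used. On the Week 9 arrays the values were stored with 3 significant digits. A deposited series table of log2 ratios to the LFC array was used only to check the labels, where HF5 Week 12 and HF20 Week 12 were exchanged between table and scanner files.

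Levels are log2 of the signal minus log2 of the 75th percentile over 43803 spots that are not controls, with outlier spots left out. A gene with several probes was read from the probe brightest by its mean. Genes well above background on at least 10 of the 20 arrays of the sides were kept. Slopes on Ucp1 over the 19 middle arrays were tested with limma 3.58.1 in R 4.3.3 with Benjamini-Hochberg adjustment at 0.05, and the fit was tested on simulated data. Figures were drawn with matplotlib 3.10.9.

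The arrays, members and gene lists were chosen with earlier results of these data known, and the Mup, antioxidant, cytokine and heat shock lists and some alternatives were added after values were seen. Genes were named by absence of overlap, by the size of the difference, by the smallest p among the middle arrays and from the lists. Alternatives were the background correction, the normalization, the filter, the number of arrays a side, the Ucp1 probe, arrays left out, covariates and blocks. The number of arrays limits the precision, and nothing says that arrays of a diet are replicates of one condition, so the spread within a side mixes diets and times.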

Additional observations from a re-analysis of the deposited data

Results flagged for a closer look

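An array was marked where its gap to the nearest array of its side was large against the range of the side (Dixon's criterion at 95%), which chance gives in about 1 in 20 groups. Of 100 groups checked, 26 held such an array, and 18 of the 26 were HF75 Week 3 on the low side.

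On HF75 Week 3 the mean level was 4.77 for the genes shared by brown fat and muscle, 6.81 for oxidative phosphorylation, 6.44 for muscle, -2.33 for macrophages, 1.21 for endothelium, -0.72 for immediate-early genes, 1.89 for the Mup genes, -5.36 for the cytokines and 3.70 for heat shock genes. Single genes on that array were at -0.35 for Mup5, 3.75 for Mup4, 7.59 for Cox8b, 7.46 for Tnnt3, -6.07 for Ifnb1, -5.86 for Csf3, -6.11 for Cxcl2, -5.90 for Fam71a and -6.11 for Il6.

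The other arrays stood apart in fewer measures. HF20 Week 12 had the lowest beige mean of the high side at -3.79. HFC Day 1 had a fat cell mean of 1.88, an antioxidant list mean of -1.30 and Nqo1 at -4.75. HF5 Week 9 had Akr1b7 at -2.87. On the low side HF20 Week 15 had a mean of 0.92 for heat production without Ucp1 and of -0.79 for nerve genes, and HF75 Week 6 had Stag1 at 2.29.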

How the results depend on the processing

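No paired analysis was possible because most labels give no replicate number, marks in some titles of Week 0 and Week 3 are not explained, and the numbers used here only follow the order of listing within a diet. Arrays of the sides were compared within scan days instead. Each scan day held arrays of a single time point, so the parts of scan day and time point cannot be told apart there. The counts of genes free of overlap, 3 higher and 7 lower, were the most open to the choice of arrays. They were 56 and 28 with 8 arrays a side, 1 and 2 with 13 a side, 228 and 71 without the muscle arrays, 27 and 37 over Week 3 to Week 18, 21 and 22 without the Week 6 arrays, 182 and 53 without HF75 Week 3, and 230 and 77 without the 6 arrays with a low immediate-early mean. Smaller sides overlap less by construction. The number of genes that passed the filter also changed, with 19301 in the main setting and 18026 without the muscle arrays. The counts are therefore not directly comparable. The count of lower genes was 0 with normexp background correction and 4 with quantile normalization. The brown list had a median of 0.61 with normexp. With scan day as a covariate, which rests on the 2 scan days that hold both sides, the medians were -0.98 for the genes shared with muscle, -2.69 for muscle, -0.26 for fatty acid oxidation, -0.67 for oxidative phosphorylation, 1.73 for immediate-early genes and 2.98 for the cytokines. In that fit single genes changed sign, with Csf3 at 0.69, Cxcl2 at 2.25, Il6 at 2.98, P2rx5 at -1.96, Cox7a1 at -0.59, Fabp3 at -0.76, Cpt1b at -1.63, Ppargc1a at -1.18, Ppargc1b at -1.02, Plin5 at -0.086, Esrra at -0.98, Ckmt2 at -3.28, Tnfrsf9 at 0.80 and Ucp3 at -1.02. One of its 2 days sets HFC Week 3 against HF75 Week 3, and the cause was not tested. Over the middle arrays the limma fit called 1 falling gene, LOC100047336, with scan day as a random block (adjusted p = 0.0366) and 1 with the time point as a random block (adjusted p = 0.0436), against 0 in the other settings, where the smallest adjusted p ran from 0.059 to 0.987. Apart from the counts and from the brown, shared and muscle lists, list medians moved by less than the spread between arrays in 305 cases, by more in 13, and turned sign from a difference of at least 2-fold in 4, and for single genes the numbers were 757, 27 and 14.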
